A study of Mus musculus with 6 samples.

Results

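The genes of mTOR and TSC signaling were compared between islets with short telomeres and wild-type islets. The set was fixed by gene symbol as Tsc1, Tsc2, Mtor, Rptor, Rictor, Rheb, Akt1s1, Ddit4, Ddit4l and Rps6kb1, of which 9 of 10 had an array probe listed for them and for no other gene, among 20204 such genes in all. These 9 genes had 10 probes, since Tsc2 had 2. Rps6kb1, a kinase of ribosomal protein S6 that mTOR activates, matched no probe of its own in the annotation used here and was not analysed. Islets were purified by collagenase digestion from 3 wild-type and 3 mTR-/-G4 mice, all male, C57BL/6 and 15 months old, and each sample was hybridized to 1 Affymetrix exon array. mTR-/-G4 mice lack the RNA component of telomerase in every cell and were bred without it until the fourth generation, which leaves them with short telomeres. They therefore differ from wild-type mice both in telomerase and in telomere length, and no telomerase-null mice with long telomeres were among these arrays. Values are log2 signals, so that a difference of 1 is a doubling, and a probe passed the study's threshold if it differed more than 1.5-fold with an unadjusted p under 0.05 from limma, a linear model that shares information on spread among probes.

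mTOR is a protein kinase that drives protein synthesis and cell growth when nutrients and growth factors are at hand. It works in one complex with Raptor, the product of Rptor, and in another with Rictor, and the small GTPase Rheb switches the Raptor complex on. Tuberin and hamartin, the products of Tsc2 and Tsc1, form a complex that shuts Rheb off, while Akt1s1 encodes PRAS40, an inhibitor bound to Raptor. Ddit4 and its paralog Ddit4l encode proteins that restrain mTOR under stress, and in β-cells the pathway is known to set cell size and mass. Much of its control lies in phosphorylation, which arrays do not measure.

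The start regions of Ddit4 and Ddit4l are shown because these paralogs lay at opposite ends of the members in spread between wild-type mice. The Ddit4l probe is dimmer than the median probe and its detection is unknown, so its small spread may not reflect its expression. All 10 members had a window in RefSeq (GRCm38.p6), and each printed window has 300 bases, of which the last 50 follow the start of the gene. Capitals mark the core of the hypoxia response element (ACGTG or GCGTG, either strand), the CCAAT box (either strand) and the TATA box (TATAAA, either strand).
Ddit4, chr10:59951721-59952020, minus strand: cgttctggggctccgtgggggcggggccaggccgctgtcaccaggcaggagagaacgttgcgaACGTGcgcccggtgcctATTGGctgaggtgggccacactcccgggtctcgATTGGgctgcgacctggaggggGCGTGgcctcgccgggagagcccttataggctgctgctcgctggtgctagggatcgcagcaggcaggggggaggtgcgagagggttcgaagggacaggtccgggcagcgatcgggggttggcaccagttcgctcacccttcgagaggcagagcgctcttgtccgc
Ddit4l, chr3:137623422-137623721, plus strand: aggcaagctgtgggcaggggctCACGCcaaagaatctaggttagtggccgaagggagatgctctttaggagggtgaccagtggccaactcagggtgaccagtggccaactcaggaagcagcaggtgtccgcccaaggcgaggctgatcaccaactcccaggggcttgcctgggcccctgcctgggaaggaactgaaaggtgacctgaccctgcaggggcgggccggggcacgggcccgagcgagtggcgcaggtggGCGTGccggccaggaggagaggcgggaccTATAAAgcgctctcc

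The Ddit4 window held hypoxia response cores 187 and 115 bases before the start and CCAAT boxes, read on the other strand as ATTGG, 170 and 137 bases before it. The Ddit4l window held 1 such core 228 bases before the start and 1 after it, a TATAAA within the transcribed bases and no CCAAT. Neither held the E-box CACGTG, which contains the core on both strands, or the cyclic AMP response element TGACGTCA. Matches to letters this short are common. Of 32817 windows of this length, 43.8% held a hypoxia response core, 37.4% a CCAAT, 13.6% a TATAAA, 7.15% a CACGTG and 1.79% a TGACGTCA. Among the members, 9 of 10 windows held the core, 3 a CCAAT, and 1, that of Rheb, a CACGTG.

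The arrays differed in ways that touch these genes. The interquartile range of the log2 signal ran from 2.63 to 2.79 in wild-type and from 2.05 to 2.56 in mTR-/-G4 samples, with mTR-/-G4 b the narrowest. Over all probes the median log2 fold change, mTR-/-G4 over wild-type, was 0.22, 0.21, -0.014 and -0.11 in 4 bins of equal size from the dimmest to the brightest probes. Averaged over 22 markers, the signal of acinar cells, which make digestive enzymes around islets, ran from 7.40 to 8.29 in wild-type and from 8.82 to 9.81 in mTR-/-G4 samples, with 19 of the 22 past the threshold as higher and 1 as lower. That of 10 islet markers, among them insulin (Ins2) and glucagon (Gcg), was 11.58, 11.72 and 11.60 in wild-type and 11.53, 11.43 and 11.55 in mTR-/-G4 samples, lower in every mTR-/-G4 sample by a mean difference of -0.13, with 0 of the 10 past the threshold. The gene of the telomerase RNA had no probe of its own here, so the genotype could not be checked on it.

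On the probe that stands for each gene, the brightest one, 0 of the 9 members passed the threshold between genotypes, against 3.57% of all genes, 1.94% as higher and 1.64% as lower. Unadjusted p was under 0.05 for 0 of the 9 by limma and for 1, Rptor, by the methods' t-test, against 22.1% of all genes by limma and 3876 of the 20204 genes by the methods' t-test. The log2 fold change was below 0 for 7 of the 9, against 36.6% of all genes, and their median was -0.15 against 0.10 over all genes. These shares depend on brightness. Among probes brighter than the median probe, 7 of the 8 members there were below 0, against 59.5% of genes. All probes brighter than the median had a median log2 fold change of -0.060. When the 6 arrays were given the same distribution by quantile normalization, 5 of the 9 were below 0, against 45.4% of all genes. The adjusted p over all 34502 probes ran from 0.141 to 0.982 for the member probes by limma. For 7 of the 9 genes the 95% interval of the difference lay wholly within 1.5-fold in either direction, the exceptions being Ddit4 and Rictor. In bulk islets, fewer cells of a type and less RNA per cell cannot be told apart.

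**Figure D1:**
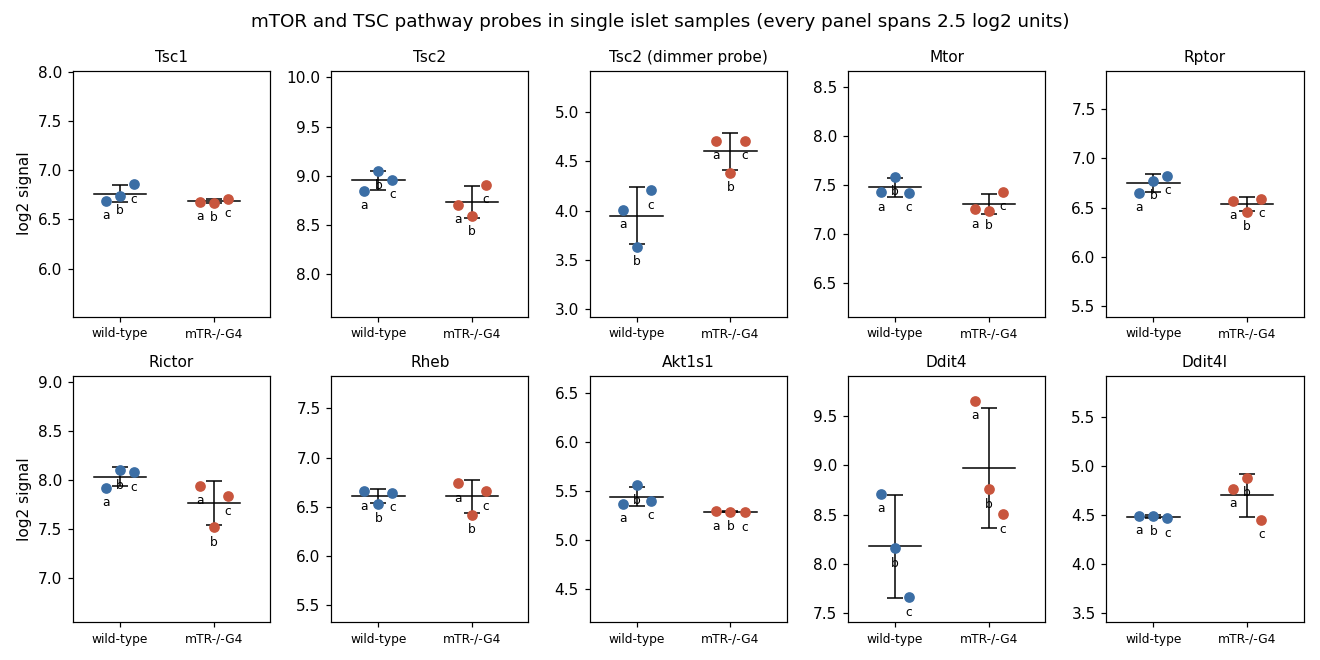
Log2 signal of the 10 member probes in each of the 3 wild-type and 3 mTR-/-G4 samples, lettered a to c, with the mean and SD of each genotype; every panel spans the same range. Ddit4 spread from 7.66 to 9.66, while Akt1s1 stayed between 5.28 and 5.56.

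Hamartin and tuberin, the brakes on Rheb, were measured by 3 probes. Tsc1 was at 6.69, 6.74 and 6.86 (log2 signal) in wild-type a, b and c and at 6.68, 6.67 and 6.71 in mTR-/-G4 a, b and c. The genotypes overlapped, and the log2 fold change was -0.075 (SE 0.096, 95% interval -0.30 to 0.15, limma adjusted p = 0.620). The brighter Tsc2 probe, 6854378, was at 8.85, 9.05 and 8.96 in wild-type and at 8.70, 8.59 and 8.91 in mTR-/-G4 samples. Here mTR-/-G4 c lay above wild-type a, and the log2 fold change was -0.22 (SE 0.12, interval -0.51 to 0.065, limma adjusted p = 0.283).

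The other Tsc2 probe, 6854377, went the opposite way. Its log2 signal was 4.01, 3.63 and 4.21 in wild-type and 4.71, 4.38 and 4.71 in mTR-/-G4 samples. Every mTR-/-G4 sample lay above every wild-type sample on it, as on the brightest probe of 25% of all genes. With the arrays given the same distribution, mTR-/-G4 b (4.101) fell below wild-type a (4.105) and c (4.290). On the deposited values, the log2 fold change of 0.65 (SE 0.17, interval 0.24 to 1.06, limma adjusted p = 0.141) passed the study's threshold. Tsc2 stands in the study's own list of altered genes, drawn from these samples, and so does Ddit4, so neither is independent evidence of a change. The fold change of 1.57 listed there for Tsc2 equals that of probe 6854377, while the brighter probe gave 0.86. Probe 6854377 is in the dimmest of the 4 bins. Of all probes 6.23% passed, 2.62% as higher and 3.61% as lower, and 0.0029% had an adjusted p under 0.05. The counts were 904 higher and 1244 lower, and 523 and 1695 with each array centred on its median. The 1000 probes nearest to it in mean signal had a median log2 fold change of 0.25, and 98.8% of them were lower than its own. With the arrays given the same distribution it was at 0.44, with each array centred on its median at 0.55 and without wild-type b at 0.49, and in none of these did it exceed 1.5-fold.

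Within each array, the dimmer Tsc2 probe minus the brighter one was -4.84, -5.42 and -4.75 (log2 signal) in wild-type and -3.99, -4.20 and -4.20 in mTR-/-G4 samples. The gap was thus narrower in each mTR-/-G4 sample than in any wild-type sample, by 0.87 (SE 0.21). This value is described here and not tested because the disagreement was already known. With the arrays given the same distribution, the log2 fold changes of the 2 probes were 0.44 and -0.10. In mTR-/-G4 b they were then at 4.10 and 8.86, a wider gap than 4.29 and 8.90 in wild-type c. The 1000 probes nearest to the brighter probe in mean signal had a median log2 fold change of -0.10. Disagreement between probes of a gene was not rare. Over 5158 pairs of a gene's brightest and another own probe, in 3063 genes, the median absolute difference of their log2 fold changes was 0.24, and 33.3% of the pairs had opposite signs. That of Tsc2 was larger than in 93.6% of the pairs. In 1168 of the 5158 pairs the gap did not overlap between genotypes, as for Tsc2. The mean of both Tsc2 probes gave a log2 fold change of 0.22, which has the sign of the dimmer probe.

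Rheb, the GTPase that the tuberin complex restrains, was at 6.66, 6.53 and 6.64 (log2 signal) in wild-type and at 6.74, 6.42 and 6.66 in mTR-/-G4 samples. The highest and the lowest value both came from mTR-/-G4 mice. The log2 fold change was -0.0044 (SE 0.12, interval -0.28 to 0.27, limma adjusted p = 0.982), and its sign turned with the scaling and with 3 of the 6 samples left out in turn.

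The kinase itself and its partners all had log2 fold changes below 0, none of which passed the threshold. Mtor was at 7.43, 7.59 and 7.42 in wild-type and at 7.25, 7.24 and 7.43 in mTR-/-G4 samples (log2 signal). Here mTR-/-G4 c lay within the wild-type range, and the log2 fold change was -0.17 (SE 0.11, interval -0.42 to 0.084, limma adjusted p = 0.332). With the arrays given the same distribution it was -0.029.

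Rptor, the scaffold that brings substrates to mTOR, was at 6.65, 6.77 and 6.82 in wild-type and at 6.57, 6.46 and 6.59 in mTR-/-G4 samples. The genotypes did not overlap. Its log2 fold change was -0.21 (SE 0.10, interval -0.45 to 0.027, limma adjusted p = 0.243), or 1.16-fold lower. Akt1s1, whose product PRAS40 holds the Raptor complex in check until it is phosphorylated, was at 5.37, 5.56 and 5.40 in wild-type and at 5.29, 5.29 and 5.28 in mTR-/-G4 samples. It did not overlap either, with a log2 fold change of -0.15 (SE 0.098, interval -0.39 to 0.077, limma adjusted p = 0.334). Rptor and Akt1s1 were the members without overlap, 2 of 9 and both lower, against 37.2% of all genes, 12.2% lower. With the arrays given the same distribution, Rptor overlapped, since mTR-/-G4 b (6.63) lay above wild-type a (6.61), and its log2 fold change was -0.11. Akt1s1 still did not overlap then and was at -0.22. The 1000 probes nearest to Akt1s1 in mean signal had a median log2 fold change of 0.056 on the deposited values.

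Rictor, the subunit that defines the other mTOR complex, was at 7.92, 8.10 and 8.08 in wild-type and at 7.94, 7.52 and 7.84 in mTR-/-G4 samples. The low value of mTR-/-G4 b set much of the difference, which was -0.27 (SE 0.14, interval -0.59 to 0.056, limma adjusted p = 0.263) with all samples and -0.14 without it. That array was the lowest of the 6 for 6 of the 9 members, namely Tsc1, Tsc2, Mtor, Rptor, Rictor and Rheb. All 6 are brighter than the median probe, and among all genes brighter than the median probe the same array was the lowest for 47.5%. The 1000 probes nearest in mean signal to each of these members had a median log2 fold change between -0.12 and -0.081.

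**Figure D2:**
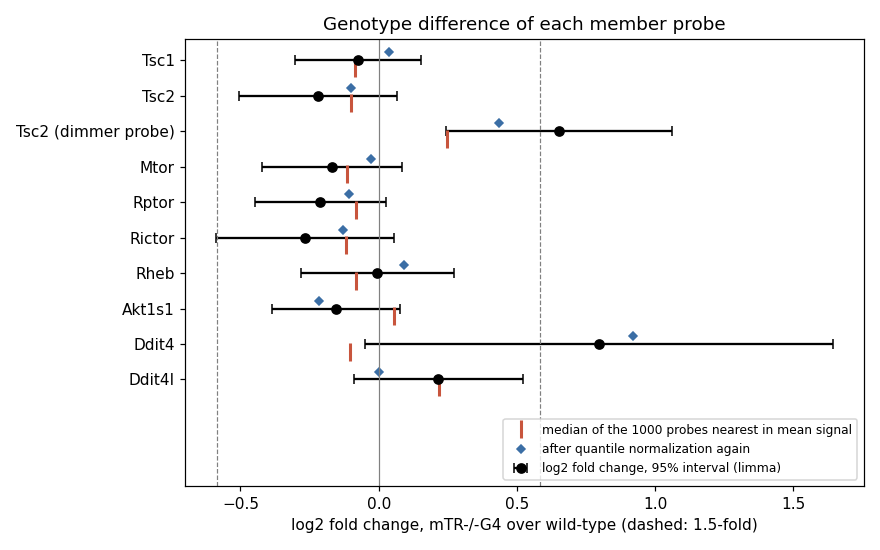
Log2 fold change of each member probe, mTR-/-G4 over wild-type, with its 95% interval from limma (black), the median of the 1000 probes nearest to it in mean signal (red bar) and the value after quantile normalization (blue diamond); dashed lines mark 1.5-fold. The dimmer Tsc2 probe (0.65) and Ddit4 (0.80) lie past the 1.5-fold line, and the interval of Ddit4 reaches below 0.

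Ddit4, which is induced by stresses such as hypoxia, DNA damage and glucocorticoids and acts through the tuberin complex, had the largest difference and the widest spread of the members. It was at 8.71, 8.16 and 7.66 (log2 signal) in wild-type and at 9.66, 8.76 and 8.50 in mTR-/-G4 samples. Wild-type a lay above mTR-/-G4 c, so the genotypes overlapped, and sample a was the highest of its genotype in both. Its log2 fold change was 0.80 (SE 0.36, interval -0.048 to 1.64, limma adjusted p = 0.229), or 1.74-fold higher, and it missed the threshold on p (unadjusted p = 0.0611 by limma). The highest and the lowest wild-type mouse lay 1.05 log2 units apart, a range of single values and not a difference of means like the 0.80. The spread within genotypes was larger than that of 96.8% of all probes. Ddit4 passed as higher without wild-type a (1.06) and without mTR-/-G4 c (1.03), and with the arrays given the same distribution (0.92), while it was at 0.45 without mTR-/-G4 a, at 0.54 without wild-type c and at 0.29 when arrays were weighted by their quality, and passed in none of these.

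Markers of acinar and duct cells, like Ddit4, were highest in mTR-/-G4 a. Endothelial, leukocyte and stellate markers were highest in wild-type a, at 8.28, 6.11 and 6.38, against 7.72, 5.70 and 6.28 in mTR-/-G4 a. On these lists too, sample a was the highest of each genotype, though the leukocyte markers hardly differed among mTR-/-G4 samples (5.70, 5.65 and 5.67). The letters are labels from the sample titles, and over all probes same-lettered samples did not deviate together. The mean log2 signal of the acinar markers was 8.29, 7.48 and 7.40 in wild-type and 9.81, 9.18 and 8.82 in mTR-/-G4 samples, so that sample a was again the highest of each genotype. That of 4 duct markers, among them Krt19 and Cftr, was 5.15, 4.84 and 4.40 in wild-type and 5.48, 5.24 and 4.87 in mTR-/-G4 samples, which puts the 6 samples in the same order as Ddit4. By a two-sided exact permutation test the genotypes gave p = 0.1 for the acinar list and for the islet list, the smallest that 3 against 3 allow, and p = 0.2 for the duct list. With the mean acinar signal of each sample as a covariate, the log2 fold change of Ddit4 was -0.90 and passed as lower. The acinar signal separated the genotypes without overlap, and as a covariate it multiplied the SE by a median of 2.30 over all probes. The part of acinar and duct cells in the Ddit4 difference was not tested.

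**Figure D3:**
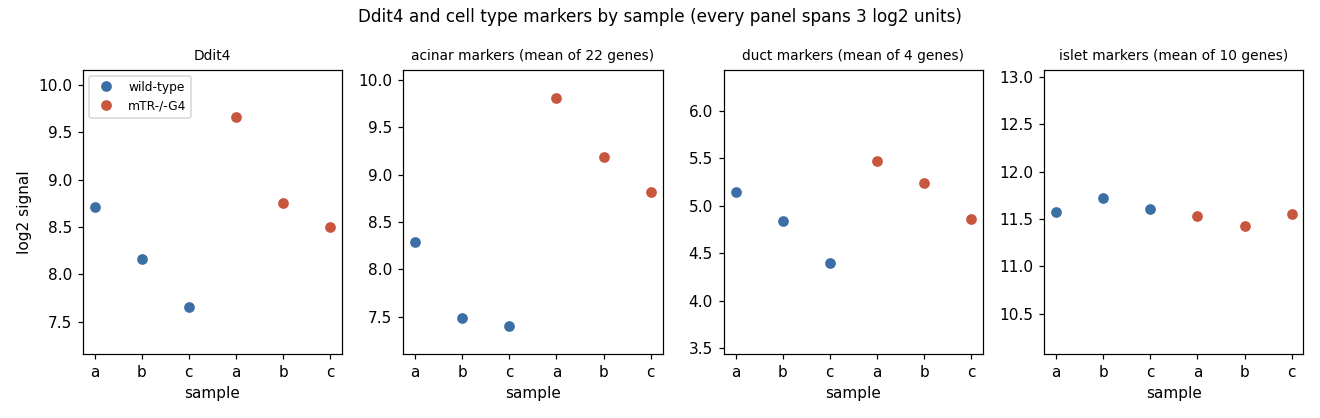
Log2 signal of Ddit4 and mean log2 signal of the acinar, duct and islet marker lists in each sample, with wild-type in blue and mTR-/-G4 in red; every panel spans the same range. Sample a is the highest of its genotype for Ddit4, the acinar and the duct markers, while the islet markers lie between 11.58 and 11.72 in wild-type and between 11.43 and 11.55 in mTR-/-G4 samples.

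The probe of Ddit4l, the paralog, showed none of this spread in wild-type islets. It is dimmer than the median probe, and whether it detected the transcript is unknown. Ddit4l was at 4.49, 4.49 and 4.47 (log2 signal) in wild-type and at 4.77, 4.88 and 4.45 in mTR-/-G4 samples. The mTR-/-G4 mice lay on both sides of the wild-type mice, and the log2 fold change was 0.22 (SE 0.13, interval -0.090 to 0.52, limma adjusted p = 0.311). This matches the median of 0.22 for the 1000 probes nearest in mean signal, and after quantile normalization its own was 0.00062.

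The genes whose brightest probe followed Ddit4 most closely over the 6 samples were Dazap2, H3f3b, Anxa1, Mafk and Irx2, with Pearson r from 0.992 to 0.996, given as a description. Of 20203 other genes, 330 (1.63%) had r above 0.9, in samples that share array-wide differences. The duct markers put the 6 samples in the order of Ddit4, while the acinar markers did not. H3f3b, a gene of the replication-independent histone H3.3, was at 10.49, 10.01 and 9.34 (log2 signal) in wild-type and at 11.48, 10.43 and 10.29 in mTR-/-G4 samples. Dazap2 was at 7.76, 7.46 and 7.25 in wild-type and at 8.26, 7.73 and 7.67 in mTR-/-G4 samples. Anxa1, the annexin induced by glucocorticoids, was at 4.56, 4.31 and 4.03 in wild-type and at 4.96, 4.54 and 4.39 in mTR-/-G4 samples. Its probe is dimmer than the median probe, and its detection is unknown. Irx2 was at 6.216, 6.104 and 5.950 in wild-type and at 6.496, 6.230 and 6.221 in mTR-/-G4 samples, without overlap, unlike the others. Of these 5 genes 0 passed the threshold, limma gave 0 of them an unadjusted p under 0.05, and their log2 fold changes ran from 0.23 to 0.79.

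The rest of the pathway was examined with 8 lists of its subunits, inputs and outputs, in which 113 of 125 genes were measured. At the study's threshold 0 of the 113 passed in either direction, against 3.57% of all genes. An unadjusted p under 0.05 was found for 17 (15.0%) by limma, against 22.1% of all genes, and for 21 by the methods' t-test, against 3876 of 20204 genes. The genotypes did not overlap for 36 of the 113 (31.9%), against 37.2% of all genes. Since no gene passed, those named next were chosen after their values were seen.

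Of 7 other subunits of the mTOR complexes and their assembly factors, 0 passed and the median log2 fold change was 0.047. Mlst8, the subunit common to both complexes, had 0.047 (SE 0.10) and Deptor, an inhibitor of both, -0.098 (SE 0.11). Prr5, which binds Rictor, scattered most, at 5.84, 4.70 and 6.03 in wild-type and at 5.29, 7.31 and 6.28 in mTR-/-G4 samples (log2 signal).

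Of 25 measured genes of amino acid sensing at the lysosome, 0 passed, 14 were below 0 and the median was -0.022. The share below 0 was 36.6% of all genes and 59.5% of genes brighter than the median probe. Wdr59, a subunit of the GATOR2 complex that relays amino acid supply, was at 6.58, 6.69 and 6.80 in wild-type and at 6.28, 6.10 and 6.29 in mTR-/-G4 samples, with a log2 fold change of -0.47 (SE 0.11, limma adjusted p = 0.125). Castor2, a homolog of the arginine sensor Castor1, was at 10.03, 10.08 and 9.86 in wild-type and at 10.50, 10.33 and 10.44 in mTR-/-G4 samples, with 0.43 (SE 0.11, limma adjusted p = 0.130). Neither overlapped, and neither reached 1.5-fold, though Castor2 passed once the arrays had the same distribution (0.62).

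Of 14 measured genes for the tuberin partner Tbc1d7, the Rheb-like GTPase Rhebl1, Akt, AMPK and related kinases, 0 passed and the median was 0.0035. The AMPK catalytic subunits Prkaa1 and Prkaa2, which signal low energy, had log2 fold changes of -0.36 (SE 0.18) and 0.076 (SE 0.10), and Akt1, which phosphorylates tuberin and PRAS40, had 0.10 (SE 0.10). Rhebl1 had a mean log2 signal of 4.57 ± 0.18 in wild-type and 5.03 ± 0.20 in mTR-/-G4 samples (SD, n = 3), without overlap, on a probe dimmer than the median probe.

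Downstream, 0 of 10 measured genes of S6 kinase and translation passed, with a median of -0.16. Larp1, a repressor of ribosomal protein mRNAs, was at 8.22, 8.29 and 8.42 in wild-type and at 7.91, 7.84 and 8.06 in mTR-/-G4 samples, with -0.37 (SE 0.11, limma adjusted p = 0.157). These values are from its brightest probe, and the mean of all its own probes gave -0.18. Rps6kb2, the other S6 kinase, had -0.27 (SE 0.14, interval -0.60 to 0.069). Among 17 other substrates and regulated factors 0 passed, with a median of -0.028. Lpin1, a phosphatidate phosphatase that mTOR phosphorylates, was at 7.03, 6.95 and 6.89 in wild-type and at 7.57, 7.36 and 7.41 in mTR-/-G4 samples, with 0.49 (SE 0.10, limma adjusted p = 0.112). Mitf, a transcription factor of the Tfeb family, was at 7.25, 7.38 and 7.50 in wild-type and at 6.67, 6.87 and 6.94 in mTR-/-G4 samples, with -0.55 (SE 0.12, limma adjusted p = 0.115). Lpin1 passed as higher (0.62) once the arrays had the same distribution and Mitf as lower (-0.65) once each was centred on its median.

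The targets of stress pathways known to induce Ddit4 gave 0 genes past the threshold. The median log2 fold change was 0.20 over 14 ATF4 targets, 1 of which was below 0, 0.11 over 15 hypoxia targets, 6 of which were below 0, and 0.31 over 11 glucocorticoid targets, 1 of which was below 0. Over all genes the median was 0.10, with 36.6% below 0. Most of these targets are brighter than the median probe. All probes brighter than the median had a median of -0.060, and 59.5% of genes there were below 0. Errfi1, a feedback inhibitor of the EGF receptor, was at 9.41, 8.50 and 8.26 in wild-type and at 10.14, 8.97 and 8.92 in mTR-/-G4 samples (log2 signal), so that sample a was the highest of each genotype as for Ddit4. Vegfa, the vascular growth factor, had -0.31 (SE 0.14) and Bnip3, a mitophagy receptor, 0.20 (SE 0.14). Unadjusted p by limma was under 0.05 for 1 gene of each list, against 22.1% of all genes. These were Vldlr among ATF4 targets (0.41, SE 0.11), Pgk1 among hypoxia targets (0.33, SE 0.11) and Mt2 among glucocorticoid targets (0.41, SE 0.15). In each, every mTR-/-G4 sample lay above every wild-type sample, and the difference stayed below 1.5-fold. Ddit3, the stress transcription factor CHOP, was at 6.61, 6.63 and 6.82 in wild-type and at 8.88, 6.53 and 6.47 in mTR-/-G4 samples, high in mTR-/-G4 a alone. Like Ddit4 and Tsc2, it stands in the study's own list of altered genes, drawn from these samples. The fold change listed there, 1.52, equals that found here, which missed the threshold on p (unadjusted p = 0.348 by limma).

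**Figure D4:**
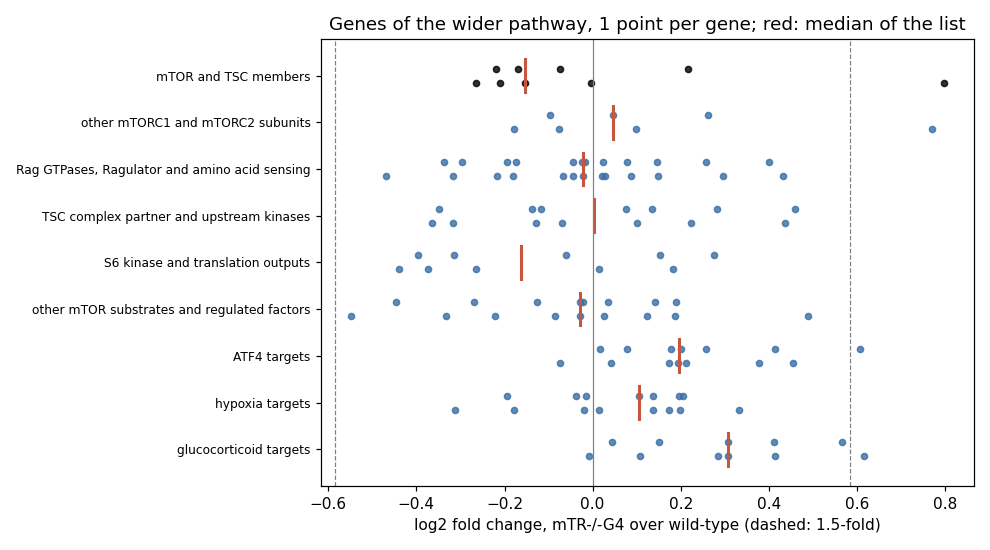
Log2 fold change, mTR-/-G4 over wild-type, of the 9 members on their brightest probes (black) and of the genes of the 8 wider lists (blue), with the median of each list in red; dashed lines mark 1.5-fold. Few points lie past a dashed line, and those that do, Ddit4, Prr5, Ddit3 and Errfi1, did not reach an unadjusted p under 0.05 by limma.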

How the data were processed

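Islet RNA of 3 wild-type and 3 mTR-/-G4 mice was hybridized to Affymetrix Mouse Exon 1.0 ST arrays, and 1 sample was taken as 1 mouse, so p-values measure the spread between these samples. The authors normalized the arrays together by Robust Multichip Analysis in Partek (version not given in the sources used here) and deposited log2 values of 34502 probes (transcript clusters), used as they stand. The submitters' processing notes name build mm9, and no probe coordinate was used. The base of the logarithm was taken as 2, usual for this method. Scan dates are not given in the sources used here. Genes were named from the platform annotation, and the probe with the highest mean stood for a gene.

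Genotypes were compared by limma 3.58.1 (lmFit, eBayes, unpaired, no filter) in R 4.3.3 on all probes, with Benjamini-Hochberg adjustment over all, and the step was tested on simulated data. Intervals are 95% intervals of the moderated model. The number of arrays, 3 per genotype, limits precision.

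The members and lists were chosen with earlier results of these data known. The rule for named genes took all members, list genes past the threshold, of which there were none, and the 5 genes most like Ddit4. The list genes described in the text fall outside it and were chosen after their values were seen. On the remaining marker lists, the genotypes differed by -0.44 for endothelial, 0.056 for leukocyte and 0.039 for stellate markers (mean log2 signal, mTR-/-G4 minus wild-type). Results were recomputed with the methods' t-test, with quantile normalization, centring, a brightness filter, other probe summaries, thresholds and variance priors, array weights, a replicate block, an acinar covariate and leaving out each sample.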

Additional observations from a re-analysis of the deposited data

How the results depend on the processing

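The count of members past the threshold, 0 higher and 0 lower, was 1 higher with quantile normalization, with 1 probe per gene, with the mean of all own probes and with the replicate block, and 0 to 1 with each sample left out. It was 1 lower with the acinar covariate. That gene was Ddit4 each time. With the acinar covariate the log2 fold change turned to -0.90 for Ddit4, 0.047 for Tsc1, 0.042 for Tsc2, 0.011 for Mtor and -0.0078 for Ddit4l. It turned to 0.038 for Tsc1 and 0.091 for Rheb with quantile normalization, to 0.22 for Tsc2 with the mean of both probes, and to 0.054 for Rheb and -0.018 for Ddit4l with array weights. Rheb ran from -0.071 to 0.088 with each sample left out. Rptor, Rictor and Akt1s1 kept their sign in every alternative and passed in none. The dimmer Tsc2 probe kept its sign in all and passed in 9 of the 13 alternatives run on it.

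Of the 113 list genes, 0 higher and 0 lower in the main comparison, 4 were higher with quantile normalization, 1 higher and 1 lower with array weights, 1 higher with the replicate block, 2 higher and 6 lower with the acinar covariate, 1 lower after centring and 1 lower with the mean of all own probes. With each sample left out, 0 to 2 were higher and 0 to 2 lower.

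Over all probes, 904 were higher and 1244 lower. The counts were 507 and 851 by the methods' t-test, 523 and 1695 after centring, and 362 and 1085 among probes brighter than the median. With 1 probe per gene the counts were 411 and 345, at a 2-fold threshold 145 and 478, and at an adjusted p under 0.05 0 and 1. Leaving out a sample gave 577 (without mTR-/-G4 b) to 1833 (without mTR-/-G4 a) higher and 908 to 1649 lower. Where another test or scaling changed a count the cause was not tested, and stricter thresholds and fewer probes lower counts by construction.

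Samples of the 2 genotypes share letters a to c, but same-lettered samples did not deviate together (correlation of deviations from the genotype means 0.043 for a, -0.16 for b and 0.11 for c), and a and b did not correlate best with their own letter. The replicate block gave 1013 probes higher and 1388 lower, with Ddit4 among them at 0.80 (SE 0.14). No measure of signal over background came with the values used here, so that for the dimmer Tsc2 probe and Ddit4l, both below the median probe, detection is unknown.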
